A study of Rattus norvegicus with 2 samples.

Results

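Mb, Ankrd1, Csrp3, Xirp2, Ckm, Ckmt2, Fabp3, Nppa, Nppb and Cryab are genes that muscle cells use under stretch, low oxygen or high energy demand. The 10 genes were chosen by name with earlier results of these data known, so all differences given for them are descriptions and none was tested. Each had 1 probe set, and together they were 10 of the 15037 genes named on the arrays. RNA labelled as left ventricle of male Sprague Dawley (SD) rats, in 1 cocaine sample and 1 control sample, was hybridized to a Clariom S array each. Whether a sample held RNA of a single rat or of several is not given in the labels or methods. According to the methods the rats were 8 weeks old, and cocaine at 20 mg/kg per day was injected into the tail vein for 14 days. Control rats had saline injections on that schedule according to the methods, but the control's own label gives its treatment as none. With 1 array per condition there was no spread between animals to set a difference against.

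As background, a muscle cell buffers its energy supply in several ways. Myoglobin holds oxygen close to the mitochondria, the mitochondrial and cytosolic creatine kinases pass high-energy phosphate between ATP and creatine, and a small binding protein carries fatty acids through the cytosol. Stretch of heart muscle is sensed at the Z-disc and at titin, and induces a set of genes that includes Ankrd1 and the natriuretic peptides, hormones that relax vessels and promote salt excretion.

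The values were normalized intensities, not logged. A background limit was taken from 1155 genes of olfactory or vomeronasal receptors, as their 95th percentile, at 64.1 in the cocaine sample and 71.5 in the control sample. Above the limit lay 67.3% of all named genes in the cocaine sample and 66.2% in the control sample. The tissue label did not match the defining markers. All 15 measured markers of alveolar and airway epithelium lay above the limit on both arrays, from 138.5 to 999971 in the cocaine sample and from 132.8 to 999971 in the control sample, with sums of 3328154 and 3362929. Of 20 markers of cardiomyocytes, 16 lay above the limit on the cocaine array, with a sum of 47334, and 11 on the control array, with a sum of 30365. Most of each sum came from a single gene, Atp2a2, at 28671 in the cocaine sample and 18344 in the control sample. Myl3 and Nkx2-5 were among the markers at or under the limit on both arrays. The samples are therefore named by treatment and not called heart muscle. The limit itself is uncertain, since 1153 negative control probe sets had medians of 166.0 in the cocaine sample and 167.9 in the control sample, which 4 and 2 of the 10 genes exceeded.

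At deposited values, 8 of the 10 genes were higher in the cocaine sample than in the control sample, beside 52.4% of all named genes, and 2 were lower. Of the 10, 7 were at least 2-fold higher, against a background of 0.698% of all named genes, and 0 were at least 2-fold lower, against 0.599%. Nothing is read from these shares, because the genes were chosen with such differences known. The median difference of the 10 was 1.34 on the log2 scale, beside 0.022 over all named genes. Most of the group was dim, however. Only Mb, Ankrd1 and Cryab passed the background limit in both samples. Csrp3, Nppa, Ckmt2 and Fabp3 were above it on the cocaine array alone, Ckm on the control array alone, and Nppb and Xirp2 on neither. With all values under the higher limit raised to it, 3 of the 10 were at least 2-fold higher, namely Mb, Ankrd1 and Ckmt2, beside 0.352% of all named genes, 0 were at least 2-fold lower, beside 0.186%, and the median difference was 0.29. At 1.5-fold the 10 held 7 higher genes, beside 4.63% of all named genes, and 1 lower gene, Ckm, beside 4.95%. Among genes with a value at or over its array's median on at least 1 array, 0.557% passed 2-fold upward and 0.285% downward. Of the 10 genes, Mb, Ankrd1 and Cryab met this filter, Mb through its cocaine value alone, so the filter itself favours a rise in Mb and nothing is read from it.

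**Figure D1:**
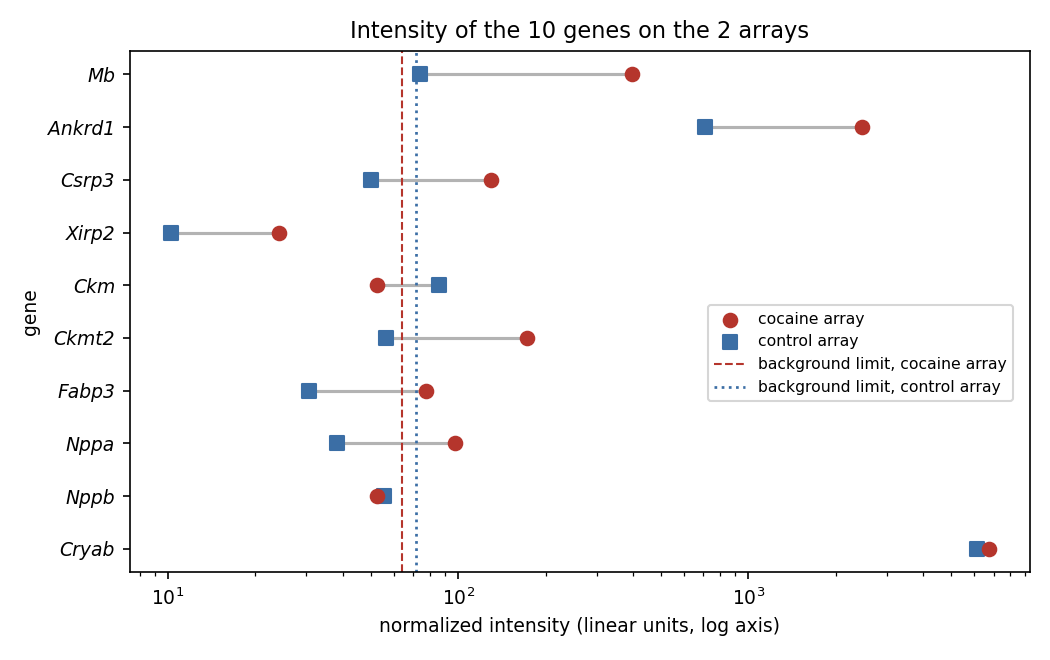
Normalized intensity (log axis) of the 10 genes, with circles for the cocaine array, squares for the control array and vertical lines for the background limit of each array, 64.1 and 71.5. Only Mb, Ankrd1 and Cryab have both symbols to the right of the limits, and Mb's control value of 73.9 lies close to them.

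Mb, which encodes the oxygen-binding protein myoglobin, showed the largest difference of the group. Its intensity was 398.3 in the cocaine sample and 73.9 in the control sample, a 5.39-fold difference that held rank 5 by rise among the 15037 named genes. Of all named genes, 56.6% lay at or below Mb in the cocaine sample and 34.3% in the control sample, a rough position only, since probe sets bind unequally. The cocaine value stood well clear of the background limit, whereas the control value was only just above it. The gene lies on chromosome 7, and its upstream region is shown because Mb led the group. A TATAAA box, in capitals, occupied bases 191 to 196 of the 250 bases before the RefSeq start (GRCr8, chr7:110647743-110647992, minus strand).
Mb: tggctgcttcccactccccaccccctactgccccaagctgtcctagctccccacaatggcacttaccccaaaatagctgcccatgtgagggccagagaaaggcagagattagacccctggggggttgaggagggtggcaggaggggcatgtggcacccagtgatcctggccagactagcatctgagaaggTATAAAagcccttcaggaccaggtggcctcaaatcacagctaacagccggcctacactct

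The other globins of the list of oxygen-binding proteins differed less. Of 8 measured genes, 7 were higher and 1 was lower on the cocaine array, 0 of them by 2-fold, and their median log2 difference was 0.38. Hba-a3, an alpha globin of red blood cells, stood at 27223 in the cocaine sample and 13971 in the control sample, and Hbb-bs, a beta globin, at 2259 and 1575. Near-identical globin genes can share signal on an array, so these values cannot be assigned to single copies with certainty. Cygb, the cytoglobin of fibroblast-like cells, was picked after its values were seen as the globin outside red cells that was detected, and stood at 180.8 and 134.3.

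The muscle creatine kinase genes Ckmt2 and Ckm had values that ran in opposite directions. Ckmt2, the sarcomeric creatine kinase of mitochondria, had a signal of 172.5 in the cocaine sample and 56.5 in the control sample. The values differed 3.05-fold, rank 18 by rise (24 with the background floor), but the control value was not above background. Taken against the higher limit of the arrays, Ckmt2 was at least 2.41-fold higher. Such a bound, here and below, holds only for this limit and shrinks with a higher one. Ckm, the cytosolic creatine kinase of muscle, ran the other way, at 52.6 in the cocaine sample and 85.6 in the control sample. Here the cocaine value was the one under the limit, and Ckm was at least 1.2-fold lower. At this limit each enzyme was detected on 1 array, and not on the same one, but the contrast depends on the limit. At the 90th percentile of the receptor genes (49.7 in the cocaine sample and 54.4 in the control sample) both enzymes passed on both arrays, and at the 99th (116.4 and 139.4) Ckm passed on neither. The upstream regions of both are shown as those of the muscle creatine kinases, with each CAGCTG, an E-box that muscle regulatory factors can bind, in capitals. Ckm carried the box at bases 25 to 30 and 176 to 181 (GRCr8, chr1:88189211-88189460, plus strand), and Ckmt2 at bases 138 to 143 (GRCr8, chr2:24845512-24845761, minus strand).
Ckmt2: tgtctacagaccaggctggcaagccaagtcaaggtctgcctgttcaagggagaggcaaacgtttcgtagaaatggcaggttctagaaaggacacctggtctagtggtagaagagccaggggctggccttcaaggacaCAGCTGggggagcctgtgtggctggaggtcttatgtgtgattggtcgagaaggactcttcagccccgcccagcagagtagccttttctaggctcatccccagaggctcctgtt
Ckm: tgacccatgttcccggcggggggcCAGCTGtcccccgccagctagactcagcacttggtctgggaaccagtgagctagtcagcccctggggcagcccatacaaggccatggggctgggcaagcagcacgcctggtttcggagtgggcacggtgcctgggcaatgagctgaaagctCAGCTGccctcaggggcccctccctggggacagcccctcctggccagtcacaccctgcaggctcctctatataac

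Among 17 other measured genes of phosphocreatine and adenylate buffering, 10 were higher and 7 lower on the cocaine array, 0 by 2-fold in either direction, with a median log2 difference of 0.08. The named genes that differed most were lower. Gamt, the enzyme that makes creatine from guanidinoacetate, stood at 263.0 in the cocaine sample and 417.3 in the control sample, and Ckmt1, the ubiquitous mitochondrial creatine kinase, at 348.6 and 539.7. Ckb, the brain-type cytosolic creatine kinase, was picked after its values were seen and hardly differed, at 3126 and 3146. Of the 4 creatine kinase genes measured, Ckmt2 alone was higher on the cocaine array.

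Fabp3, the fatty acid carrier of heart and red muscle, had a signal of 77.6 in the cocaine sample and 30.7 in the control sample. The values differed 2.53-fold, rank 37 by rise, but the control value was under the limit and the cocaine value barely passed it. With the background floor the rank was 4216, and the gene was at least 1.08-fold higher. Of 14 other measured genes of fatty acid carriage and uptake, 8 were higher and 6 lower, and the median log2 difference was 0.15. Fabp4, the carrier of adipocytes, macrophages and capillaries, was the only one at least 2-fold higher, at 693.6 in the cocaine sample and 235.0 in the control sample, and both values were above background. Fabp6, the ileal bile acid carrier, stood at 44.1 and 75.5, with the cocaine value under the limit. Of 10 measured adipocyte markers, Fabp4 again among them, 8 were higher, beside 52.4% of all named genes, and 2 lower (Lipe and Pnpla2). Above the limit lay 6 in the cocaine sample and 5 in the control sample. Lep, Cidec, Ucp1 and Retn counted as higher but were under the limit on both arrays, so they could not show a change. The sums were 8529 and 8347, of which Pnpla2 alone gave 5530 and 6220. Adipoq, the adipocyte hormone adiponectin, was named after its values were seen, as it held rank 1 by rise among all named genes. It stood at 352.1 in the cocaine sample and 24.7 in the control sample, the control value under the limit, and was at least 4.92-fold higher. The part of adipocyte markers in the values of the fatty acid carriers was not tested.

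Ankrd1, a titin-binding ankyrin repeat protein that is induced when muscle is stretched, was the only gene of the 10 that was both at least 2-fold higher and far above the limit on both arrays. It stood at 2468 in the cocaine sample and 710.7 in the control sample, 3.47-fold higher and rank 12 by rise, with 81.3% of named genes at or below it in the cocaine sample and 65.4% in the control sample. The floor at the limit left this difference as it was. Csrp3, the muscle LIM protein of the Z-disc, stood at 129.6 in the cocaine sample and 49.9 in the control sample, a 2.60-fold difference with rank 33 by rise (107 with the floor). Only the cocaine value passed the limit, so Csrp3 was at least 1.81-fold higher. Xirp2, an actin-binding Xin repeat protein of the intercalated disc, stood at 24.2 and 10.2, not above background on either array, so no fold is given and its rank of 46 by rise rests on values that cannot be told from background.

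Of 22 other measured genes of the stretch and stress response, 14 were higher and 8 lower on the cocaine array, and the median log2 difference was 0.05. Smpx, a small protein of striated muscle, was the only one at least 2-fold higher at deposited values. It stood at 69.4 in the cocaine sample and 21.9 in the control sample, so that the cocaine value passed its own limit but not the higher limit of the arrays. Ccn1, a matrix-associated protein induced by growth factors and load, ran the other way, at 717.1 in the cocaine sample and 1361 in the control sample. Ankrd2 and Ankrd23, the closest relatives of Ankrd1, were picked after their values were seen and lay under the limit on both arrays, at 28.0 and 17.5 on the cocaine array and at 31.8 and 22.1 on the control array. Within that family Ankrd1 was therefore the only gene detected.

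**Figure D2:**
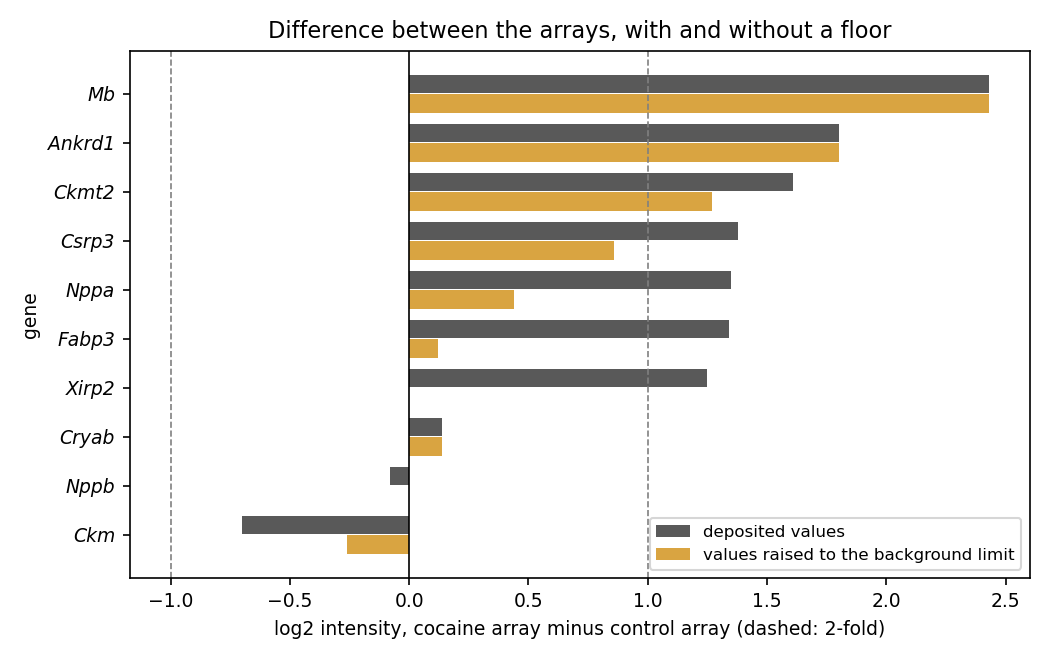
Log2 intensity of the cocaine array minus that of the control array for each gene, at deposited values (grey) and with values under the higher background limit raised to it (yellow), with dashed lines at 2-fold. Mb at 2.43 and Ankrd1 at 1.80 keep their full difference, Ckmt2 has 1.61 and 1.27, and Xirp2 has 1.25 and 0.00.

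The natriuretic peptide genes Nppa and Nppb are direct neighbours on chromosome 5 in the RefSeq order, with 0 genes between them, and both were dim. Nppa, which encodes the atrial peptide, had a signal of 97.4 in the cocaine sample and 38.2 in the control sample. The values differed 2.55-fold, rank 36 by rise, but only the cocaine value was above background. With the floor the rank was 972, and Nppa was at least 1.36-fold higher. Nppb, which encodes the B-type peptide that is induced by wall stress, stood at 52.4 in the cocaine sample and 55.4 in the control sample, under the limit on both. No difference in Nppb was detectable at this signal, and whether the neighbours differed from each other cannot be read from these values. Their upstream regions are shown because the genes are adjacent members of 1 family. In Nppa (GRCr8, chr5:163711934-163712183, plus strand) a TATAAA box lay at bases 212 to 217, and CAGCTG at bases 45 to 50 and 234 to 239. In Nppb (GRCr8, chr5:163699758-163700007, plus strand) the capitals mark, on the minus strand, a TATAAA at bases 43 to 48 and CATTCC, the letters bound by TEAD factors, at bases 120 to 125, and on the plus strand AGATAA, a form of the GATA factor motif, at bases 141 to 146.
Nppa: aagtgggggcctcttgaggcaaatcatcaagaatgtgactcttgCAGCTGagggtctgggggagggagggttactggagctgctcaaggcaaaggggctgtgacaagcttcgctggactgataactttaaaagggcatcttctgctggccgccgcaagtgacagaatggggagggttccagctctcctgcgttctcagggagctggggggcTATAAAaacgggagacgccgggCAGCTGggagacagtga
Nppb: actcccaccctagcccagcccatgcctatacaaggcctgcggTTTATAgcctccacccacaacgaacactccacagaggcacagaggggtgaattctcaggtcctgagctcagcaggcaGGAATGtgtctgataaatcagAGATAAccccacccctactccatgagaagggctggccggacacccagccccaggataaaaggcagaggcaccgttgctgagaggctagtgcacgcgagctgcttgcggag

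Most genes for the receptors, processing enzymes and regulators of the natriuretic peptides were detected in both samples. Of 19 other measured genes of the system, 16 lay above the limit on both arrays, 12 were higher and 7 lower on the cocaine array, and the median log2 difference was 0.07. Npr3, the clearance receptor that removes the peptides, was the only one at least 2-fold higher. It stood at 3618 in the cocaine sample and 1573 in the control sample, a 2.30-fold difference with both values above background. Gata6, a transcription factor of heart, lung and gut, followed at 3828 and 2632. Nkx2-5 and Gata4, which activate Nppa in heart muscle, and Nppc, the C-type peptide, were picked after their values were seen and were at or under the limit on both arrays. Other regulators of the list, Tbx5, Mef2a, Mef2d, Srf and Myocd, also named after their values were seen, were above it on both.

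Cryab, a small heat shock protein that protects desmin and titin in muscle and is also made in lens and other tissues, was far above background and nearly equal on the arrays. It stood at 6742 in the cocaine sample and 6122 in the control sample, a 1.10-fold difference, and a log2 difference of 0.14 that was smaller than the median absolute difference of all named genes, 0.22. Of 8 other measured small heat shock proteins, 5 were higher and 3 lower, 0 by 2-fold, and the median log2 difference was 0.31 at deposited values and 0.03 with the background floor. Hspb2, a muscle form, stood at 536.9 in the cocaine sample and 331.7 in the control sample, and Hspb8, a partner of the cochaperone Bag3, at 669.6 and 439.6.

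**Figure D3:**
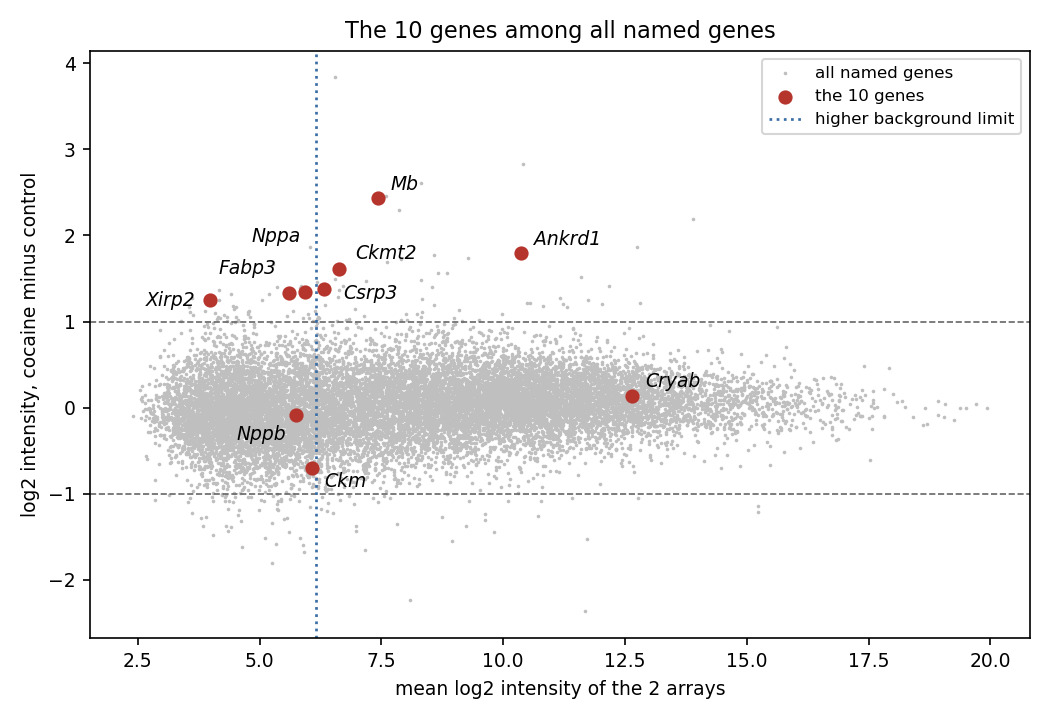
Difference between the arrays (log2, cocaine minus control) against the mean log2 intensity for all named genes (grey) and the 10 genes (red); dashed lines mark 2-fold and the dotted line the higher background limit of 71.5. Mb and Ankrd1 stand above the cloud to the right of the limit, whereas Xirp2, Fabp3 and Nppa stand above it to the left.

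The genes nearest to these in rank by rise, a likeness over 2 arrays only, were partly genes of heart muscle. Mb stood between Tnnt2, the cardiac troponin T, at a distance of 0.032 on the log2 scale, and the lipoxygenase gene Alox15, at 0.132. Ankrd1 stood between the drug efflux pump gene Abcb1a, at 0.021, and Tnni3, the cardiac troponin I, at 0.020. For the other genes at least 2-fold higher, Csrp3, Nppa, Ckmt2, Fabp3 and Xirp2, the rank rested on a control value under the limit, so their neighbours are names only and their distances are not given. Ckmt2 stood between Smpx and Fabp4, Nppa between Ncam1 and Fabp3, Csrp3 between Clec4d and Or10ag52b, and Xirp2 between Cyp2a3 and Cxadrl1, and Fabp3 was followed by Ect2. Of these neighbours, Fabp4 and Cyp2a3 alone were above the limit on both arrays. Or10ag52b belongs to the olfactory receptor genes that gave the limit. It stood at 29.1 in the cocaine sample and 11.2 in the control sample, under the limit on both arrays.

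Most markers of cardiomyocytes were higher on the cocaine array beside these genes. Of 20 measured, 17 were higher and 3 lower, beside 52.4% of all named genes higher. Lower were Myl2, at 6344 in the cocaine sample and 7778 in the control sample, and Hrc, at 102.1 and 112.1. Myl3 was lower as well, but under the limit on both arrays. Myh7, Nkx2-5 and Tnni1 counted as higher but were also under the limit on both, so they could not show a change. At least 2-fold higher were 9 of the 20 at deposited values, beside 0.698% of all named genes, and 7 with the background floor, beside 0.352%. Nothing is read from these shares, because this list too was chosen with earlier results of these data known. The median log2 difference was 0.74 at deposited values and 0.57 with the floor. Of 14 skeletal muscle markers 9 were higher, 0 by 2-fold, with a median of 0.03 and sums of 635 in the cocaine sample and 622 in the control sample. Of that list, 12 genes lay under the limit on both arrays and could not show a change. The others were Acta1, at 119.6 in the cocaine sample and 81.2 in the control sample, and Tnnt3, at 139.9 and 157.2. The 8 smooth muscle markers were all detected on both arrays, with sums of 95324 and 97651 and a median of -0.07, and of the lung epithelium markers 7 were higher and 7 lower. Their median of 0.00 was that of Sftpc, which read 999971 on both arrays, the highest value of each, and cannot itself show a change. The other lung epithelium markers lay between -0.24 (Napsa) and 0.51 (Aqp5) on the log2 scale. The part of the cardiomyocyte markers in the differences of Mb, Ankrd1, Csrp3, Ckmt2, Fabp3 and Nppa was not tested. In RNA from a piece of tissue, more cells of a type and more RNA per cell cannot be told apart.

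**Figure D4:**
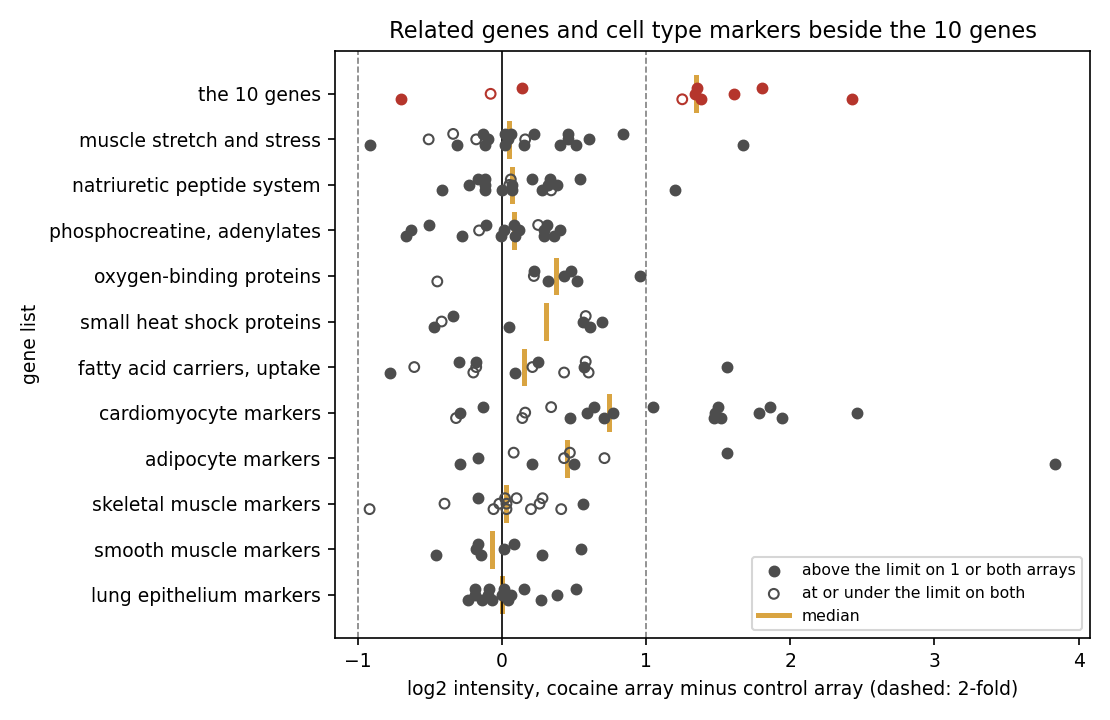
Log2 difference between the arrays (cocaine minus control) for each measured gene of the related lists and marker lists; filled points lie above the background limit on 1 or both arrays, open points on neither, and yellow bars are medians. At the deposited values shown, the median is 1.34 for the 10 genes, 0.74 for cardiomyocyte markers and 0.45 for adipocyte markers. In the other lists it is between -0.07 and 0.38. With the background floor it is 0.29 for the 10 genes, 0.57 for cardiomyocyte markers, 0.00 for adipocyte markers and 0.38 for oxygen-binding proteins.

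Of the 10 genes, 7 matched an entry in the RefSeq promoter table (GRCr8), and Ankrd1, Csrp3 and Cryab did not. Both strands of the window from 250 bases before to 50 bases after the start were searched for 6 motifs, and a match is a description of letters only. TATAAA was found in 3 of the 7 windows (Mb, Nppa and Nppb), beside 14.2% of all 33469 promoters. CAGCTG was found in 4 (Ckm, Ckmt2, Nppa and Nppb, in Nppb only after the start), beside 15.1%. CATTCC and AGATAA were each found in Nppb alone, beside 14.2% and 11.6%. The MEF2 consensus was found only in Xirp2, beside 3.29% of all promoters, and the CArG consensus in 0 of the 7, beside 1.64%. None of the motifs overlapped another in these windows. Xirp2 is a gene whose values were not above background.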

How the data were processed

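RNA labelled as left ventricle came from 1 cocaine sample and 1 control sample, with a Clariom S array for each. The values deposited by the authors were normalized intensity on a linear scale, which ran from 4.50 to 999971 after cocaine and from 4.91 to 999971 in the control. MAS5 is named in the submitters' processing notes and, in the methods, the Transcriptome Analysis Console. Its version, the scaling and the genome build are not given in sources used here. The arrays arrived on a like scale, and their sorted log2 values for named genes differed by at most 0.21.

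Of 24834 probe sets, 15049 carried a single symbol in the platform's annotation, and the others were transcripts without a single symbol (8139) or controls (1646). All named Entrez IDs were found in the RefSeq table of GRCr8, and 0 symbols differed. Intensities were put on the log2 scale without a pseudocount and averaged where a gene had several probe sets (10 genes), and the control value was subtracted from the cocaine value. A gene was counted at 2-fold. Where 1 array was not above its background limit, the difference is given as "at least", the brighter value over the higher limit of the arrays. Limits rest on receptor genes expected to be silent, and probe sets bind unequally, so levels of different genes give no order. The number of arrays limits the precision.

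The members, the gene lists and the motifs were chosen with earlier results of these data known. Named by rule were the 10 genes, in each related list the genes with the largest absolute difference and those at least 2-fold different and above a limit, and the nearest genes in rank by rise; genes picked after their values were seen are marked as such. The steps were run on simulated arrays with known changes and the same noise at all levels. Such arrays cannot show how the steps handle noise that differs with level. Alternatives were median centring, quantile normalization, a loess on the mean level (span 0.3), floors, a pseudocount of 16, the highest probe set, filters on level and a 1.5-fold threshold. A planned comparison of protein sequences was not run. Python 3.11.15, numpy 2.4.6, pandas 2.3.3, statsmodels 0.14.6 and matplotlib 3.10.9 were used.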

Additional observations from a re-analysis of the deposited data

How the results depend on the processing

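Median centring, quantile normalization, a loess on the mean level and the highest probe set left 7 of the 10 genes at least 2-fold higher, with medians from 1.32 to 1.41. Treatment of low values mattered more. With a floor at the background limit, 3 genes were at least 2-fold higher and the median was 0.29, with log2 differences of 1.27 for Ckmt2, 0.86 for Csrp3, 0.44 for Nppa, 0.12 for Fabp3, 0.00 for Xirp2 and -0.26 for Ckm. With each array floored at its own 25th percentile, which moved the median of all named genes by -0.105, the median was 1.08, Fabp3 had 0.91 and Xirp2 turned to -0.10, since both its values were then the floor of their array. A pseudocount of 16 gave a median of 1.03, with 2.20 for Mb, 1.38 for Ckmt2, 1.14 for Csrp3, 1.06 for Nppa, 1.00 for Fabp3 and 0.62 for Xirp2. Counting only genes that reached the array median on at least 1 array left 2 at least 2-fold higher, with a median of 1.80, but Mb entered through its cocaine value alone, so this filter favours higher genes. At a 1.5-fold threshold 1 gene, Ckm, was lower.

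The background limit itself is uncertain. At the 90th percentile of the receptor genes (49.7 after cocaine and 54.4 in the control) 6 of the 10 genes were above it on both arrays, and at the 99th (116.4 and 139.4) 2 were. The array's 1153 negative control probe sets, looked at after the data were seen, were brighter, with medians of 166.0 and 167.9, which 4 of the 10 genes passed after cocaine and 2 in the control. Their 95th percentiles were 3422 and 3869. Only 1 gene, Cryab, passed these on both arrays, and with a floor there 0 genes were at least 2-fold higher, the median was 0.00, and Mb, Ankrd1, Csrp3, Nppa, Ckm, Ckmt2, Xirp2 and Fabp3 each had 0.00. No paired analysis was possible because each condition had 1 array.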
